A study of Mus musculus with 9 samples.

Results

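Non-classical MHC class I genes were followed in primary mammary tumours that had lost Kmt2c or Kmt2d. The 8 genes H2-Q4, H2-Q6, H2-Q7, H2-T22, H2-T23, H2-M3, Cd1d1 and Mr1 were taken by symbol from the 32286 rows of the feature table. They were selected with the tumour-cell comparison of each knockout with wild type (WT) already known, in which H2-Q6 had been higher in both knockouts. For these comparisons levels and fold changes are thus given as a description, without a test. Earlier results of host cells may also have been known, so that the host-cell tests against WT may not be independent of the selection. The mouse mammary tumour line 168FARN had been injected into the mammary fat pad of immunocompetent female BALB/c mice, and its cells were marked by H2BMc, the transcript of a histone H2B-mCherry reporter. There were 3 WT tumours, 3 Kmt2c KO tumours and 3 Kmt2d KO tumours, each a suspension of tumour and host cells that was sequenced cell by cell with a 10x 5′ kit. Kmt2c and Kmt2d encode histone H3 lysine 4 methyltransferases, and they were disrupted in the cell line with a pool of guides and Cas9. Each knockout was thus a pool of edited cells, and its 3 tumours replicate the mouse and not the making of the knockout. The host cells carried no edit. The study gives the age of the mice at purchase, and no label gives it for the time when the tumours were taken.

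Classical MHC class I molecules (H2-K1 and H2-D1 in the reference mouse) are highly variable and show peptides to CD8+ T cells, whereas the non-classical, or class Ib, molecules vary little and are read by natural killer cells and unconventional T cells. H2-T23 encodes Qa-1, which is recognised by the inhibitory CD94/NKG2A receptor. H2-Q6 and H2-Q7 are genes of the Qa-2 group and H2-Q4 lies beside them, H2-T22 is a ligand of some gamma delta T cells, and H2-M3 presents N-formylated peptides. Cd1d1 presents lipids to natural killer T cells and Mr1 presents vitamin B metabolites to mucosal-associated invariant T cells. Most class I genes are induced by interferons through the transactivator NLRC5 and through interferon-responsive elements in their promoters.

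Promoter stretches of the MHC-linked members are shown because they differ in exact matches to the motifs searched, with that of the classical gene H2-K1 for comparison. In GRCm38.p6 (the mm10 build of the files), H2-Q4 (chr17:35379617-35384674), H2-Q6 (chr17:35424850-35430055) and H2-Q7 (chr17:35439140-35443773) lie in a row on chromosome 17, followed by H2-T23 (chr17:36029977-36032701), H2-T22 (chr17:36037128-36042742) and H2-M3 (chr17:37270234-37274485). Cd1d1 (chr3:86995834-87012358) and Mr1 (chr1:155127874-155146814) lie outside the MHC. Each stretch of 90 bases is upstream of the annotated gene start in RefSeq and is written 5′ to 3′ on the strand of the gene, and capitals mark the motif matches.
H2-Q6 (chr17:35424653-35424742, plus strand): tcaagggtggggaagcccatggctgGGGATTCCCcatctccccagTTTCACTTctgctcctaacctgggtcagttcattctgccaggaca
H2-Q7 (chr17:35438997-35439086, plus strand): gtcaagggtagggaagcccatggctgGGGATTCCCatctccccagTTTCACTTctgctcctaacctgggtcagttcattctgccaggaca
H2-Q4 (chr17:35379419-35379508, plus strand): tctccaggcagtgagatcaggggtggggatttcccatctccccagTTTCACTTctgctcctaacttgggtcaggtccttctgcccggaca
H2-M3 (chr17:37270088-37270177, plus strand): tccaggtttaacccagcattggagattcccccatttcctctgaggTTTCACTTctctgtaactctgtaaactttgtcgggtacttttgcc
H2-T22 (chr17:36042889-36042978, minus strand): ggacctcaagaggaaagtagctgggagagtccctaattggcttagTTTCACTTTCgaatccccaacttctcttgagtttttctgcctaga
H2-T23 (chr17:36032781-36032870, minus strand): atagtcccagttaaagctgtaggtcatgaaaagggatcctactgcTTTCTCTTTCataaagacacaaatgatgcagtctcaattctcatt
H2-K1 (chr17:34000393-34000482, minus strand): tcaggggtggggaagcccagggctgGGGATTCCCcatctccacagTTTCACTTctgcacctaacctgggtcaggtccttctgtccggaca

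The letters TTTCACTT, part of the interferon-responsive element of class I promoters, occurred on either strand in 1.60% of 32851 RefSeq promoters of the same length (250 bases before to 50 after the start). They were found in the promoters of H2-Q4, H2-Q6, H2-Q7, H2-M3 and H2-T22, and in that of H2-K1. The kappa B element GGGATTCCC (0.353% of promoters) was found in H2-Q6, H2-Q7 and H2-K1. Only these exact letters were searched. The H2-Q4 stretch reads gggatttccc at the corresponding place, so that the lack of a match does not mean the lack of such an element. The spaced core GAAANNGAAA of the interferon-stimulated response element (3.44% of promoters) was found in H2-T22 and H2-T23 on the strand opposite to that printed, and in H2-T22 it overlaps TTTCACTT. No match to these motifs was found in the Mr1 window, and Cd1d1 was not in the promoter table. The motifs were chosen after the promoters had been read, and a match is a description of the letters only.

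H2-Q6 and H2-Q7 are close to identical, which bears on every value of a single Q gene. Their promoters were 97.7% identical over 260 aligned bases and their coding sequences 95.5%, whereas the coding sequences of H2-Q6 and H2-Q4 were 90.2% identical and those of H2-Q6 and H2-T23 84.2%. Of all 90-base windows of the H2-Q6 transcript, 11.8% occurred unchanged in another gene, most of them in H2-Q7. For H2-T22 this share was 17.4%, for H2-Q7 13.2%, for H2-T23 5.13% and for H2-Q4 1.70%. Among the first 500 windows from the 5′ end, where reads of a 5′ library start, it was 0 for H2-Q4, H2-Q6, H2-Q7, H2-T23, H2-M3 and Mr1, 9.8% for H2-T22 and 14.2% for Cd1d1. The reference is of the H2-b haplotype of C57BL/6 and BALB/c mice carry H2-d, so that a row may hold reads of an allele or a copy that the reference lacks, and single Q and T rows are uncertain for this reason also.

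After cell filtering, 58645 of 89147 barcodes were kept. H2BMc-positive cells (at least 1 H2BMc UMI) numbered 16707, with 361 to 3434 cells and 9779795 to 47951145 UMIs per tumour, endothelial-gated cells 423 (29 to 68 cells, 168316 to 497829 UMIs per tumour) and macrophage-gated cells 497 (16 to 123 cells, 60762 to 306112 UMIs per tumour). The gates needed 2 of 6 endothelial or 3 of 6 macrophage markers. Levels are given as CPM, the UMIs of a gene per 1000000 UMIs of the class. Pecam1 and Cdh5 stood at 1229 and 1294 CPM in the endothelial gate, and C1qa and Csf1r at 3946 and 645 CPM in the macrophage gate. Krt8, an epithelial keratin, had UMIs in 79.9% of H2BMc-positive cells. In H2BMc-positive cells Kmt2c stood at 43.9, 42.0 and 57.6 CPM in Kmt2c KO libraries 1, 2 and 3 and at 48.1, 49.1 and 48.1 in WT, and Kmt2d at 25.9, 31.9 and 24.3 in Kmt2d KO and at 21.4, 19.0 and 14.9 in WT. Edits of the guide sites need not lower a transcript, so that these levels do not check the knockouts. Library numbers only name libraries. WT libraries were the smallest, and the mitochondrial limit removed 26.6% to 68.5% of their barcodes against 13.0% to 29.5% in the others. The median UMIs per H2BMc-positive cell were 13729 to 24081 in WT, 8661 to 11824 in Kmt2c KO and 11222 to 14789 in Kmt2d KO. The H2BMc gate and unthinned shares of cells depend on this depth. Kmt2d KO library 2 stood apart from the other Kmt2d KO libraries. After thinning each H2BMc-positive cell to 2000 UMIs, 64.5% of its cells held a UMI of 9 interferon-stimulated genes, against 31.1% and 31.6% in Kmt2d KO libraries 1 and 3, 19.9% to 27.5% in WT and 71.4% to 80.0% in Kmt2c KO. The unthinned shares were 91.5% in that library, 66.6% and 72.2% in the other Kmt2d KO libraries, 62.9% to 78.1% in WT and 91.4% to 97.1% in Kmt2c KO.

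In tumour cells, the MHC-linked members were higher in both knockouts than in WT. H2-Q6 was at 70.7, 75.1 and 105 CPM in WT libraries 1, 2 and 3, at 418, 415 and 324 in Kmt2c KO and at 268, 253 and 274 in Kmt2d KO. The lowest knockout library lay well above the highest WT library, and the Kmt2d KO libraries were close together. Its log2 fold change was 2.21 ± 0.17 (SE) in Kmt2c KO, or 4.61-fold, and 1.63 ± 0.17 in Kmt2d KO, or 3.10-fold.

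H2-Q7 was at 25.7, 27.0 and 34.1 CPM in WT, at 136, 138 and 131 in Kmt2c KO and at 64.7, 98.0 and 68.7 in Kmt2d KO. Its log2 fold changes were 2.22 ± 0.17 and 1.38 ± 0.16. H2-Q4 was at 293, 320 and 351 CPM in WT, at 954, 974 and 882 in Kmt2c KO and at 606, 752 and 622 in Kmt2d KO, with log2 fold changes of 1.54 ± 0.12 and 1.01 ± 0.11. For both genes every knockout library lay above every WT library, and Kmt2d KO lay between WT and Kmt2c KO. Because reads of Q genes may move between rows, the 6 H2-Q rows were added up. The sum does not account for reads of classical class I genes that may fall in Q rows. The H2-Q rows summed stood at 471, 518 and 588 CPM in WT, at 1825, 1848 and 1627 in Kmt2c KO and at 1132, 1343 and 1189 in Kmt2d KO, which gave log2 fold changes of 1.75 ± 0.12 and 1.18 ± 0.12.

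The T-region genes and H2-M3 differed from H2-Q6 in how the Kmt2d KO libraries were spread. H2-T23 was at 32.1, 31.8 and 38.1 CPM in WT, at 132, 151 and 177 in Kmt2c KO, and at 62.0, 121 and 63.8 in Kmt2d KO libraries 1, 2 and 3. H2-T22 was at 66.4, 59.1 and 67.4 CPM in WT, at 212, 243 and 282 in Kmt2c KO, and at 80.7, 192 and 84.7 in Kmt2d KO. H2-M3 was at 52.6, 53.4 and 57.3 CPM in WT, at 121, 126 and 120 in Kmt2c KO, and at 72.1, 108 and 70.5 in Kmt2d KO. In all 3 genes Kmt2d KO library 2, the library with the high interferon share, lay just below the Kmt2c KO range and the other Kmt2d KO libraries were nearer to WT. The log2 fold changes in Kmt2c KO were 2.17 ± 0.24 for H2-T23, 1.93 ± 0.28 for H2-T22 and 1.17 ± 0.15 for H2-M3. In Kmt2d KO they were 1.24 ± 0.23, 0.85 ± 0.28 and 0.58 ± 0.15, and without library 2 they were 0.87, 0.34 and 0.37. H2-Q6 was at 1.67 without that library. Kmt2d KO library 2 was also the highest of its group for H2-Q7 and H2-Q4. A high library 2 was thus not particular to the T-region genes and H2-M3.

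**Figure D1:**
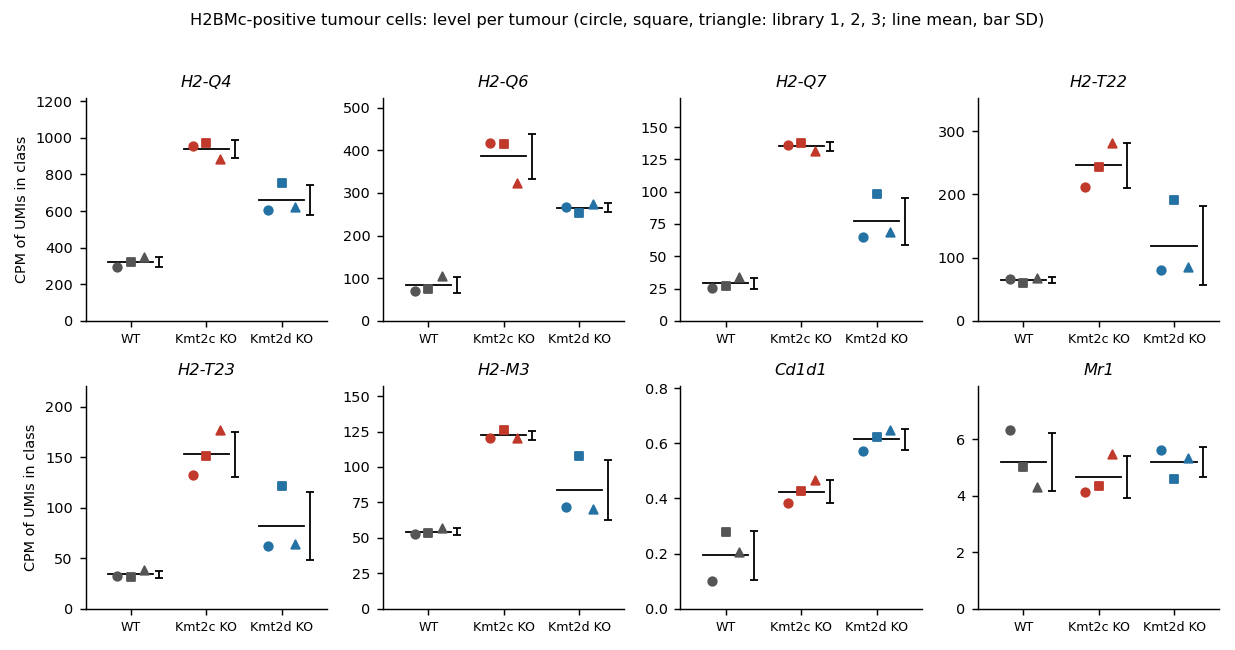
Level of each of the 8 genes in H2BMc-positive cells, in CPM of the class, with 1 point per tumour (circle, square and triangle for libraries 1, 2 and 3), a line at the mean and a bar of ± 1 SD, for WT, Kmt2c KO and Kmt2d KO. The H2-Q6 points of Kmt2d KO lie at 253 to 274 CPM, whereas the H2-T22 point of Kmt2d KO library 2 lies at 192 CPM and the others at 80.7 and 84.7.

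The members outside the MHC behaved differently. Mr1 was at 6.31, 4.997 and 4.30 CPM in WT, at 4.11, 4.33 and 5.49 in Kmt2c KO and at 5.60, 4.59 and 5.34 in Kmt2d KO, so that the genotypes overlapped, with log2 fold changes of -0.17 ± 0.17 and -0.03 ± 0.17. Cd1d1 was close to the limit of detection in tumour cells, with 1, 4 and 2 UMIs in WT, 13, 13 and 14 in Kmt2c KO and 14, 19 and 31 in Kmt2d KO, or 0.100 to 0.647 CPM. Its log2 fold changes of 1.04 ± 0.42 and 1.55 ± 0.40 rest on these counts.

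The members were selected on these comparisons, and both use the same WT tumours. The median log2 fold change of the 8 members was 1.74 in Kmt2c KO and 1.12 in Kmt2d KO, and over all genes it was 0.00 and 0.01. Of the 7 members at a mean of at least 1 CPM, 6 (all but Mr1) had every Kmt2c KO library above every WT library, which held for 21.4% of genes at that level, and the same 6 had every Kmt2d KO library above WT, against 13.9% of genes. These counts belong to the comparisons used in the selection, and Cd1d1, below 1 CPM, is not among them. Tumour cells of the genotypes also differed in Krt8, which was at 550 to 569 CPM in WT and 235 to 339 in Kmt2c KO and 304 to 466 in Kmt2d KO, and in host transcripts. The 6 macrophage markers, of which 4 to 6 were detected per library, summed to 2.97 to 10.5 CPM in WT, 8.84 to 19.4 in Kmt2c KO and 4.21 to 14.3 in Kmt2d KO, and the 6 endothelial markers, of which 3 to 6 were detected, to 4.10 to 11.1, 11.8 to 15.9 and 6.13 to 17.0 CPM. In H2BMc-positive cells without a UMI of Ptprc, Pecam1, Cdh5, Csf1r or C1qa, the H2-Q6 log2 fold change was 2.22 in Kmt2c KO and 1.65 in Kmt2d KO.

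The difference between the knockouts was not named in the selection and was tested. Since earlier results of these data were known when the members were chosen, its independence from the selection is not certain. With all 9 tumours, none of the 8 members was called between Kmt2d KO and Kmt2c KO tumour cells (edgeR, 0.0781% of genes called), although 6 had an unadjusted p below 0.05, as did 17.8% of all genes tested, and DESeq2 called 5, against 2.46% of all genes. A gene was called where the adjusted p over all genes was below 0.05. The 6 abundant members were lower in Kmt2d KO by log2 fold changes of -0.54 ± 0.11 for H2-Q4 (adjusted p = 0.0780, edgeR), -0.57 ± 0.16 for H2-Q6 (adjusted p = 0.125), -0.58 ± 0.14 for H2-M3 (adjusted p = 0.0969), -0.84 ± 0.15 for H2-Q7 (adjusted p = 0.0724), -0.93 ± 0.22 for H2-T23 (adjusted p = 0.0933) and -1.08 ± 0.27 for H2-T22 (adjusted p = 0.100). Cd1d1 (0.51 ± 0.28) and Mr1 (0.13 ± 0.16) had the opposite sign and were not called. Kmt2d KO library 2 was singled out after its interferon share had been seen, and it was the highest Kmt2d KO library for each of these members but H2-Q6, so that the values without it are a description with no test. Without it the log2 fold changes were -1.59 for H2-T22, -1.30 for H2-T23, -1.04 for H2-Q7, -0.80 for H2-M3, -0.63 for H2-Q4 and -0.54 for H2-Q6.

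Endothelial-gated cells, which were not edited, showed the same members higher in Kmt2c KO tumours. The members were chosen with earlier results of these data known. Tests and counts of host cells against WT may thus not be independent of that choice. H2-Q6 was at 207, 211 and 271 CPM in WT libraries 1, 2 and 3, at 735, 787 and 802 in Kmt2c KO and at 442, 542 and 476 in Kmt2d KO. Every library of both knockouts lay above every WT library. This held for 10.5% (Kmt2c KO) and 6.78% (Kmt2d KO) of genes at a mean of at least 20 CPM. H2-Q6 was called higher in Kmt2c KO, by a log2 fold change of 1.79 ± 0.19 or 3.46-fold (adjusted p = 0.000191, edgeR), and in Kmt2d KO it was at 1.08 ± 0.19 or 2.12-fold (adjusted p = 0.0656). Without Kmt2d KO library 2 the value was 0.97.

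H2-T23 was at 109, 151 and 199 CPM in WT endothelial-gated cells, at 633, 717 and 832 in Kmt2c KO and at 150, 748 and 207 in Kmt2d KO. Library 2 of Kmt2d KO reached the Kmt2c KO range, while library 1 lay within the WT range and library 3 just above it. H2-T23 was called higher in Kmt2c KO (2.28 ± 0.44 on the log2 scale, 4.84-fold, adjusted p = 0.00886, edgeR) and not in Kmt2d KO (1.24 ± 0.45, adjusted p = 0.405), where the value without library 2 was 0.19. H2-T22 was at 172, 178 and 187 CPM in WT, at 396, 495 and 571 in Kmt2c KO and at 167, 439 and 180 in Kmt2d KO, where libraries 1 and 3 did not exceed the WT range. Its log2 fold change was 1.48 ± 0.31 in Kmt2c KO (adjusted p = 0.0113, edgeR) and 0.53 ± 0.31 in Kmt2d KO (adjusted p = 0.680), or -0.07 without library 2.

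The remaining abundant members were also called higher in Kmt2c KO endothelial-gated cells. H2-Q4 ranged from 310 to 394 CPM in WT, 844 to 990 in Kmt2c KO and 453 to 897 in Kmt2d KO (1.38 ± 0.24 in Kmt2c KO, adjusted p = 0.0044, edgeR). H2-Q7 ranged from 84.8 to 115, 355 to 422 and 142 to 271 CPM (1.89 ± 0.26, adjusted p = 0.00107). H2-M3 ranged from 25.1 to 38.2, 77.3 to 105 and 40.3 to 56.1 CPM (1.57 ± 0.30, adjusted p = 0.00841). Thus 6 of the 6 members tested were called higher in Kmt2c KO, where 3.91% of 5421 genes were, with a median of 1.68 against 0.00 over all genes. None was called in Kmt2d KO (edgeR, 0.0369% of genes called), where 4 had an unadjusted p below 0.05 (9.06% of genes), DESeq2 called 1 (0.0658% of genes) and the median was 0.81. Cd1d1, with 1 to 10 UMIs per tumour, and Mr1, with 0 to 4, did not pass the filter on low counts. All 6 had every Kmt2c KO library above WT, against 10.5% of genes at a mean of at least 20 CPM, and H2-Q4, H2-Q6, H2-Q7 and H2-M3 had every Kmt2d KO library above WT, against 6.78%.

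In macrophage-gated cells the counts were smaller, and of the 6 members tested H2-Q6 had the largest fold change in Kmt2c KO. It was at 57.9, 98.7 and 125 CPM in WT (6, 10 and 24 UMIs), at 357, 480 and 382 in Kmt2c KO (40, 147 and 105 UMIs) and at 220, 182 and 296 in Kmt2d KO (36, 28 and 18 UMIs). Every library of both knockouts lay above every WT library, which held for 8.63% (Kmt2c KO) and 5.5% (Kmt2d KO) of genes at a mean of at least 20 CPM. The log2 fold change of H2-Q6 was 2.12 ± 0.30 in Kmt2c KO, or 4.35-fold (adjusted p = 0.00151, edgeR), and 1.21 ± 0.33 in Kmt2d KO (adjusted p = 0.216). As in endothelial-gated cells, tests and counts against WT may not be independent of how the members were chosen.

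H2-T23 was at 193, 375 and 361 CPM in WT macrophage-gated cells, at 811, 960.5 and 1081 in Kmt2c KO and at 452, 768 and 428 in Kmt2d KO. It was called higher in Kmt2c KO (1.67 ± 0.28, 3.18-fold, adjusted p = 0.00446, edgeR) and not in Kmt2d KO (0.86 ± 0.29, adjusted p = 0.417). H2-T22 ranged from 67.9 to 88.8 CPM in WT, 200.2 to 255 in Kmt2c KO and 55.0 to 149.8 in Kmt2d KO, and was called in Kmt2c KO (1.66 ± 0.34, adjusted p = 0.0103). H2-Q4 (1.07 ± 0.25, adjusted p = 0.0209, edgeR) and H2-Q7 (1.22 ± 0.31, adjusted p = 0.0304) were called as well, and H2-M3 was not (1.10 ± 0.33, adjusted p = 0.0594).

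In all, 5 of 6 members tested were called higher in Kmt2c KO macrophage-gated cells, where 4.14% of 3286 genes were, with a median of 1.44 against -0.02 over all genes. The count was 2 without Kmt2c KO library 2, 3 without WT library 1, which held 17 macrophage-gated cells, and 3 with at least 20 cells required per tumour. Shares of all genes are not given for these alternatives, so that the lower counts do not set the members apart from other genes. None was called in Kmt2d KO (edgeR, 0.0% of genes called), where 2 had an unadjusted p below 0.05 (7.4% of genes), DESeq2 called 0 and the median was 0.54. All 6 had every Kmt2c KO library above WT, against 8.63% of genes, and H2-Q6, H2-T23 and H2-M3 had every Kmt2d KO library above WT, against 5.5%.

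**Figure D2:**
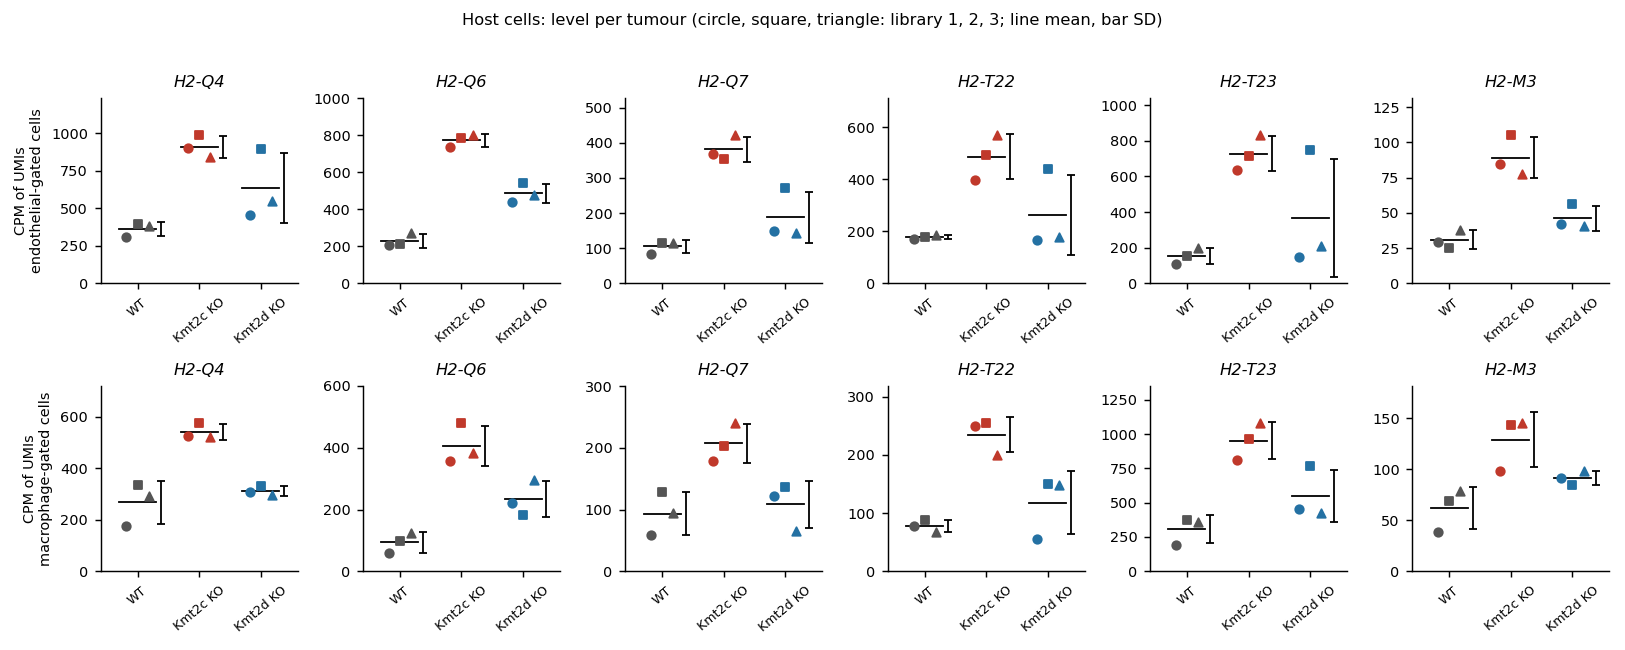
Level of the 6 members with enough counts, in CPM of the class, in endothelial-gated cells (upper row) and macrophage-gated cells (lower row), with 1 point per tumour, a line at the mean and a bar of ± 1 SD. In the upper row the H2-T23 points of Kmt2d KO lie at 150, 748 and 207 CPM, and in the H2-Q6 panel the 3 Kmt2d KO points lie together at 442 to 542.

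Between the knockouts, no member was called in host cells with all tumours. In endothelial-gated cells the 6 log2 fold changes of Kmt2d KO against Kmt2c KO ran from -0.56 (H2-Q4) to -1.08 (H2-Q7) (edgeR, 0.0% of genes called), 6 had an unadjusted p below 0.05 (9.43% of genes) and DESeq2 called 0. Without Kmt2d KO library 2, which was the highest of its group for all 6, the values ran from -0.82 (H2-Q6) to -2.07 (H2-T23), as a description. In macrophage-gated cells the values ran from -0.59 (H2-M3) to -1.10 (H2-T22), with 0.0913% of genes called, 5 members at an unadjusted p below 0.05 (10.9% of genes) and 0 called by DESeq2.

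The gates were checked for transcripts of other cells. H2BMc and Krt8 were at 0 in both host gates by construction. Of the 5 lymphocyte markers, at most 1 was detected in the endothelial gate of a tumour, at 2.69 CPM at most, and at most 2 in the macrophage gate, at 10.9 CPM at most. Rgs5, a pericyte gene, reached 164 CPM in Kmt2c KO endothelial-gated cells, 42.1 in Kmt2d KO and 28.1 in WT, and the 3 fibroblast markers summed to at most 117, 10.7 and 5.30 CPM, and the part of pericytes and fibroblasts in the results was not tested. The 6 macrophage markers summed to 3.90 to 23.8 CPM in Kmt2c KO endothelial-gated cells, 16.1 to 42.1 in Kmt2d KO and 28.1 to 37.1 in WT. In macrophage-gated cells the 3 fibroblast markers were at 0 in all WT libraries and summed to 3.64 to 9.80 CPM in Kmt2c KO, where 1 was detected per library, and 16.5 to 30.6 CPM in Kmt2d KO, where 1 to 3 were. The 6 endothelial markers, of which 0 to 2 were detected per library, summed to 0 to 47.0 CPM in WT, 8.92 to 65.5 in Kmt2c KO and 0 to 82.3 in Kmt2d KO. The part of these cells in the results was not tested. Free RNA from tumour cells was gauged from the 10 genes that, among those at 100 CPM or more in tumour cells, were lowest in each gate relative to tumour cells. They stood at 0.263% to 5.63% of their tumour-cell level in endothelial-gated cells and at 0% to 8.90% in macrophage-gated cells. In macrophage-gated cells the shares were 0.533%, 2.05% and 0% in WT libraries 1, 2 and 3. They were 8.90%, 6.58% and 1.32% in Kmt2c KO and 7.87%, 5.85% and 3.66% in Kmt2d KO. In endothelial-gated cells they were 0.577%, 0.457% and 0.795% in WT. There they were 2.85%, 2.45% and 0.435% in Kmt2c KO and 0.263%, 5.14% and 5.63% in Kmt2d KO. At those shares H2-Q6 would be at no more than 15.4 and 37.2 CPM, against measured levels of 207 to 802 and 57.9 to 480, and H2-T23 at no more than 6.22 and 11.7 CPM, against 109 to 832 and 193 to 1081. H2-Q4, the member with the most tumour-cell UMIs, would reach 84.9 CPM in macrophage-gated cells of Kmt2c KO library 1, where 526 was measured, and 47.7 in those of Kmt2d KO library 1, where 306 was measured. In those of WT it would reach at most 6.57 CPM, in library 2, where 336 was measured. This measure was chosen after seeing the data, and genes picked as the lowest may understate free RNA. The gauged share was higher in most knockout libraries than in WT, and its part in the fold changes was not tested.

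**Figure D3:**
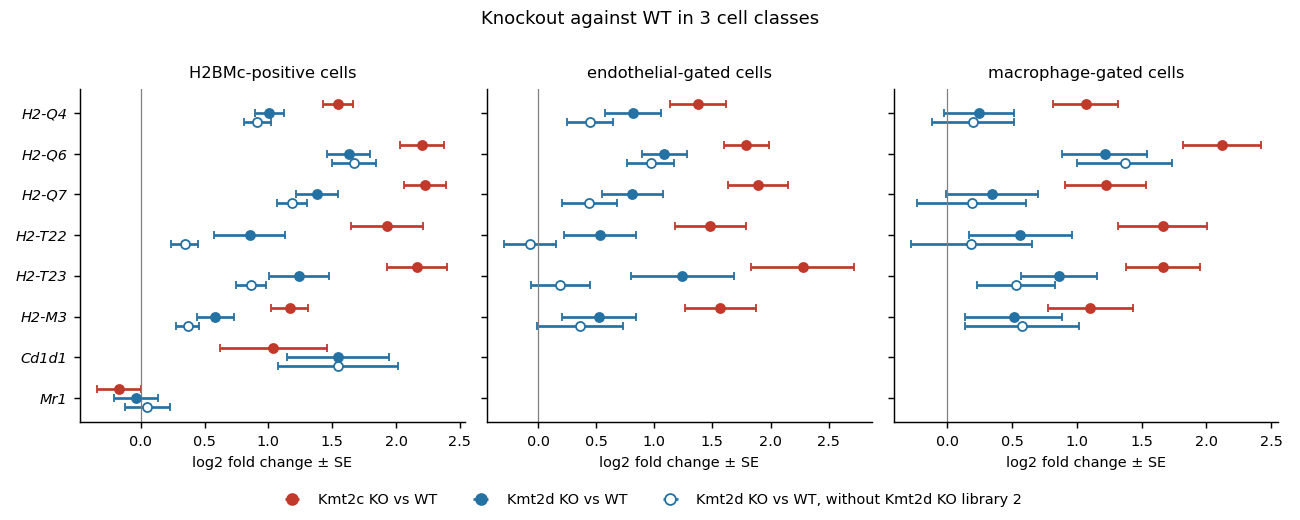
Log2 fold change against WT, with a bar of ± 1 SE, of Kmt2c KO (red), Kmt2d KO (blue) and Kmt2d KO without library 2 (open) in H2BMc-positive, endothelial-gated and macrophage-gated cells; genes without a point did not pass the filter on low counts. In the endothelial panel the Kmt2d KO value of H2-T23 falls from 1.24 to 0.19 without library 2, and that of H2-Q6 from 1.08 to 0.97.

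The members differed in which cells held them. Within tumours, endothelial-gated cells were compared with H2BMc-positive cells with the tumour as a block. H2-T23 was 4.17-fold higher in endothelial-gated cells (2.06 ± 0.12 on the log2 scale, adjusted p = 9.9e-15, edgeR), H2-Q7 2.76-fold (1.46 ± 0.11), H2-T22 2.20-fold (1.14 ± 0.10) and H2-Q6 2.07-fold (1.05 ± 0.10). Cd1d1, at 4.7 to 33.9 CPM in endothelial-gated cells and below 0.65 CPM in tumour cells, differed by 5.30 ± 0.42, which is given without a test because it passed the filter on low counts only through the gated cells, with 1 to 10 UMIs per tumour. H2-M3 was lower by -0.74 ± 0.13 (adjusted p = 1.3e-05), and H2-Q4 (-0.05 ± 0.09, with the opposite sign under DESeq2 and without TMM scaling) and Mr1 (0.06 ± 0.43) were not called. In this comparison 26.5% of 13593 genes were called higher and 36.2% lower, and the median over all genes was -0.18.

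Macrophage-gated cells held H2-T23 at 6.60-fold the level of H2BMc-positive cells of the same tumours (2.72 ± 0.13 on the log2 scale, adjusted p = 4.5e-21, edgeR). H2-Q7 was also higher (0.77 ± 0.17, adjusted p = 0.000217). Cd1d1, at 3.47 ± 0.78, had 0 to 2 UMIs per tumour in this gate and is given without a test for the same reason. H2-Q4 was lower by -0.84 ± 0.12 (adjusted p = 3.2e-07). H2-Q6 (-0.10, adjusted p = 0.966), H2-T22 (-0.11 ± 0.15), H2-M3 (0.05 ± 0.16) and Mr1 (-0.40 ± 0.61) were not called. Here 23% of 13017 genes were called higher and 35.8% lower, with a median of -0.34 over all genes. The summed H2-Q rows were at 0.44 ± 0.08 in endothelial-gated cells and -0.34 ± 0.11 in macrophage-gated cells. H2-Q4 is the most abundant row of this sum in tumour cells.

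**Figure D4:**
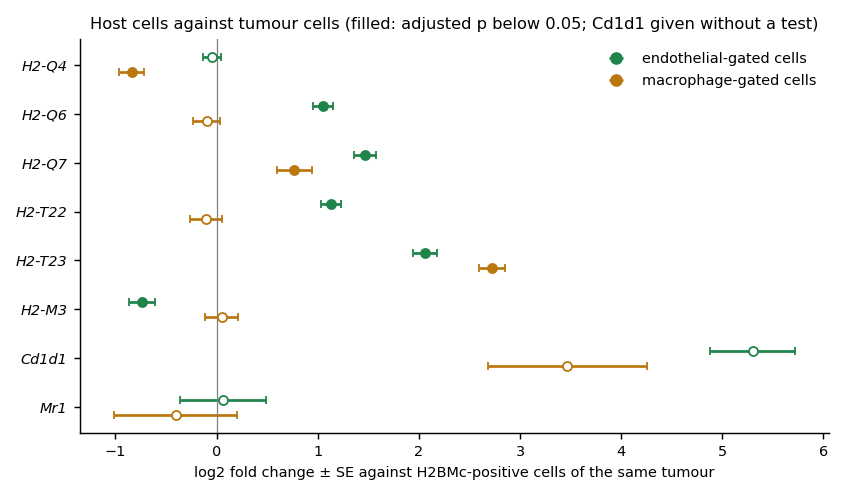
Log2 fold change, with a bar of ± 1 SE, of endothelial-gated (green) and macrophage-gated cells (brown) against H2BMc-positive cells of the same tumour, filled where the edgeR adjusted p was below 0.05; Cd1d1 is open because it is given without a test. H2-T23 lies furthest right of the MHC-linked members in both classes (2.06 and 2.72), and H2-Q4 lies at -0.05 and -0.84.

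To ask whether the members varied with cell state inside a tumour, H2BMc-positive cells thinned to 2000 UMIs were split by whether they held a UMI of 9 interferon-stimulated genes (such as Ifit1, Isg15 and Rsad2). This left 1723 WT, 8150 Kmt2c KO and 6342 Kmt2d KO cells, after 11, 127 and 354 shallower cells were left out. Levels were then compared within each tumour by a two-sided exact sign-flip permutation test over the 9 tumours, adjusted over 8 members and 3 splits, in which the smallest unadjusted p is 0.00391. H2-T23 was higher in interferon-positive cells in 9 of 9 tumours, by a mean log2 ratio of 0.88 ± 0.50 (SD, adjusted p = 0.00852 by this exact test), and H2-T22 by 0.85 ± 0.33 in 9 of 9. The mean ratios of the Q genes were smaller, and each was higher in 9 of 9 tumours, with 0.46 ± 0.16 for H2-Q4, 0.30 ± 0.18 for H2-Q6 and 0.49 ± 0.34 for H2-Q7, each with the same adjusted p. H2-M3 was higher in 8 of 9 (0.50 ± 0.34, adjusted p = 0.0144, exact). Cd1d1 (-0.06 ± 0.17) and Mr1 (0.30 ± 0.60) were not called. At a thinning to 1000 UMIs, H2-T23 (0.48 ± 0.66, adjusted p = 0.127, exact) and H2-Q7 (0.33 ± 0.50, adjusted p = 0.144, exact) were not called, and H2-Q6 stood at 0.49 ± 0.46, so that the order of the members did not hold. In a further thinning to 2000 UMIs of all genes, added after seeing the data, 5 of the 6 members at a mean of at least 20 CPM (all but H2-Q7, 8 of 9) were higher in 9 of 9 tumours, against 5.54% of 6655 genes at that level.

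Among cells without an interferon UMI, every library of both knockouts lay above every WT library for H2-Q4, H2-Q6, H2-Q7, H2-T23 and H2-M3. In the thinning of all genes this held for 11.7% (Kmt2c KO) and 7.48% (Kmt2d KO) of genes at a mean of at least 20 CPM, and there H2-T22 did not overlap either. In the first thinning the Kmt2d KO and WT libraries overlapped for H2-T22, for Mr1 the Kmt2c KO and WT libraries did, and Cd1d1 had 0 to 3 UMIs per library. In these cells H2-Q6 was at 0.70, 0.70 and 1.14 UMIs per 10000 in WT libraries 1, 2 and 3, at 4.17, 3.50 and 2.69 in Kmt2c KO and at 2.87, 2.56 and 2.68 in Kmt2d KO. H2-T23 was at 0.20, 0.39 and 0.31 in WT, at 1.19, 1.03 and 1.26 in Kmt2c KO and at 0.64, 0.96 and 0.65 in Kmt2d KO, and H2-T22 at 0.51, 0.65 and 0.81, at 1.72, 1.34 and 1.77, and at 0.76, 1.23 and 0.87. These values belong to the comparison on which the members were selected and are given as a description. A cell without such a UMI at this depth may still express interferon-stimulated genes.

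Cells with a UMI of 6 mitosis genes (such as Top2a and Mki67) held less of 6 of the 8 members. H2-T23 was lower in mitotic cells in 9 of 9 tumours by a mean log2 ratio of -1.09 ± 0.41 (SD, adjusted p = 0.00852 by the exact sign-flip test). H2-M3 (-0.67 ± 0.51), Mr1 (-0.60 ± 0.32), H2-Q6 (-0.51 ± 0.40), H2-T22 (-0.49 ± 0.12) and H2-Q4 (-0.34 ± 0.16) were lower in 9 of 9 as well, with the same adjusted p, and H2-Q7 (-0.25 ± 0.44) and Cd1d1 (-0.05 ± 0.09) were not called. Mr1 was close to the limit of detection, with a UMI in 0.677% to 1.96% of thinned cells per library. Its ratio thus rests on few UMIs. At a thinning to 1000 UMIs H2-T22 was not called (-0.28 ± 0.29, lower in 7 of 9 tumours, adjusted p = 0.0597, exact), and H2-Q4 (at -0.17 ± 0.16), H2-Q6, H2-T23, H2-M3 and Mr1 were called. In the thinning of all genes, 5 of the 6 members at a mean of at least 20 CPM (all but H2-Q7) were lower in 9 of 9 tumours, as were 16.2% of 6656 genes, and Mr1, below that level, was lower in 8 of 9. With 5 hypoxia genes (such as Bnip3 and Ndrg1) the ratios were small. H2-Q4 was lower in hypoxic cells in 8 of 9 tumours (-0.17 ± 0.12, adjusted p = 0.0144, exact) and H2-T23 in 7 of 9 (-0.17 ± 0.17, adjusted p = 0.0402, exact), where 14.4% of genes were lower at an unadjusted p below 0.05, and these calls did not hold under all alternatives.

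**Figure D5:**
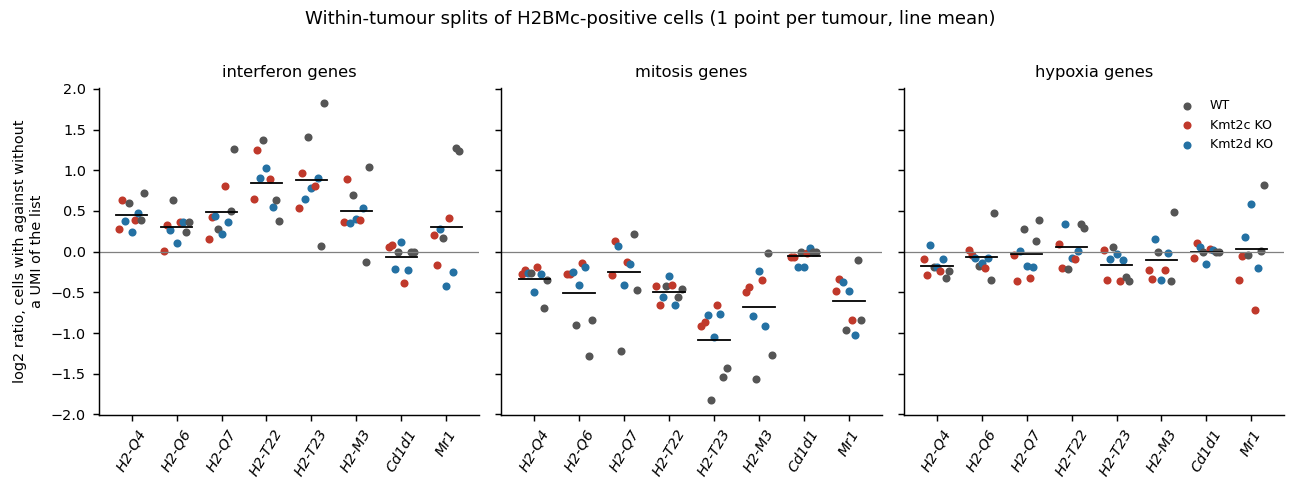
Log2 ratio of the level in H2BMc-positive cells with against those without a UMI of the interferon, mitosis or hypoxia genes, with 1 point per tumour coloured by genotype and a line at the mean over 9 tumours. Points of H2-T22 and H2-T23 lie above 0 in the interferon panel and below 0 in the mitosis panel in all 9 tumours.

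Across the 9 tumours, the genes with a profile in H2BMc-positive cells nearest to that of H2-Q6, H2-T23 and H2-M3 were listed. Likeness was measured as the root mean square difference of centred and scaled log2(CPM + 1) profiles among 8659 genes at a mean of at least 10 CPM. Nearest to H2-Q6 were H2-Q1 (0.14 SD), Gm11361 (0.15 SD) and Gm2000 (0.16 SD), and H2-Q4 ranked 6, H2-Q7 10, H2-T23 104, H2-M3 140 and H2-T22 453. H2-Q7 was nearer to H2-T23 (0.19 SD, rank 34) and to H2-M3 (0.22 SD, rank 48) than to H2-Q6 (0.26 SD). Nearest to H2-T23 were Oas2 (0.08 SD), an interferon-induced synthetase, Rtp4 (0.09 SD) and Ly6c1 (0.12 SD), and nearest to H2-M3 were the immunoproteasome subunit Psmb9 (0.09 SD), the peptide transporter Tap1 (0.09 SD) and Rtp4 (0.10 SD). With 9 tumours in 3 genotypes, every gene that follows the genotypes is near to every other, so that the order is a description.

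The other genes of the pathway are given by their counts as a description, since the lists were chosen with earlier results of these comparisons known. In Kmt2c KO tumour cells 14 of 17 genes of the classical class I molecules and the presentation machinery were called higher (edgeR, 9.57% of 14089 genes called higher) and 1 lower (the chaperone Canx, -0.42 ± 0.08), with a median log2 fold change of 1.26, and in Kmt2d KO, where 1.04% of genes were called higher, 3 of 17 were (H2-K1, H2-D1 and the peptide-loading factor Tapbp, median 0.63). H2-K1 was at 1.03 ± 0.09 in Kmt2c KO and 0.60 ± 0.09 in Kmt2d KO, and H2-D1 at 1.26 ± 0.09 and 0.73 ± 0.09, all called (edgeR). B2m, the light chain of all class I molecules, was at 1.27 ± 0.20 and 0.61 ± 0.19, Tap1 at 2.27 ± 0.33 and 1.28 ± 0.32, the immunoproteasome subunit Psmb8 at 1.57 ± 0.23 and 0.78 ± 0.22, and the transactivator Nlrc5 at 1.85 ± 0.35 and 1.17 ± 0.34. The last 4 were called in Kmt2c KO and not in Kmt2d KO. In host cells 9 of 17 pathway genes were called higher in Kmt2c KO endothelial-gated cells (median 0.89, against 3.91% of all genes called higher) and 7 of 15 in macrophage-gated cells (median 0.94, against 4.14%), and 0 in Kmt2d KO in either class, where 7 and 3 had an unadjusted p below 0.05, against 9.06% and 7.4% of all genes. Among them Nlrc5 was at 2.07 ± 0.51 in endothelial-gated cells and 2.37 ± 0.35 in macrophage-gated cells.

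Other class I-like genes were higher as well in Kmt2c KO tumour cells. Of 27 such genes listed, 20 were in the feature table and 11 were tested, of which 7 were called higher (9.57% of all genes) and 1 lower (Mill2, -1.27 ± 0.26, with 9.17% of all genes called lower), with a median of 1.64. The 7 were H2-Q1 (1.64 ± 0.14), H2-Q2 (2.11 ± 0.28), H2-Q10 (1.85 ± 0.17), H2-T24 (2.83 ± 0.57), Gm11127 (2.09 ± 0.26), Gm7030 (1.41 ± 0.26) and Gm8909 (1.91 ± 0.14). In Kmt2d KO 5 were called higher, against 1.04% of all genes (median 1.20). These counts too are a description, and Gm7030, named H2-T9 in an older annotation, shares 90-base windows with H2-T23. In host cells 5 of 8 tested were called higher in Kmt2c KO endothelial-gated cells (3.91% of all genes), and 2 of 6 in macrophage-gated cells (4.14%), where Fcgrt, the neonatal Fc receptor, was called lower (-1.36 ± 0.36).

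Transcripts of 6 receptors of natural killer and myeloid cells were rare in the suspensions. Of these, Klrd1 and Klrc1 encode CD94/NKG2A, which recognises Qa-1, and no claim is made that the others read a member. T-cell receptors that read members are not listed. Over all kept cells Klrd1 (CD94) was at 0.04 to 1.37 CPM per library, Klrc1 (NKG2A) at 0.05 to 0.82, Klrc2 at 0.00 to 0.26 and Klrk1 (NKG2D) at 0.20 to 1.97. Of the inhibitory receptors of myeloid cells, Lilrb4a was at 0.95 to 11.2 CPM and Pirb at 0.38 to 3.82. In the 290 lymphocyte-gated cells H2-Q6 was at 885, 574 and 493 CPM in WT (6, 12 and 8 UMIs), at 400, 576 and 574 in Kmt2c KO (4, 151 and 42 UMIs) and at 551, 750 and 594 in Kmt2d KO (35, 7 and 17 UMIs). At these counts the genotypes overlapped and no difference was tested.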

How the data were processed

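Suspensions of 9 primary tumours, depleted of dead cells and debris on Percoll, were sequenced with a 10x 5′ kit. The authors ran Cell Ranger 7.0.1 against mm10 and deposited 1 aggregated matrix of UMI counts per gene and barcode, which are whole numbers that were not normalized. The group of each library was read from the genotype letter of the aggregation table (C, Kmt2c KO; D, Kmt2d KO; X, WT). No label spells these letters out. X was read as WT because it is the remaining group and the letter that names of the study's tables set against C and D, and every comparison with WT rests on this reading. Libraries could not be tied to replicate numbers, and the sources define replicates by a passage between collections of the cell line without saying whether each tumour came from its own passage, so that p-values measure the spread between tumours only. Cells with more than 500 and fewer than 7500 genes and under 15% mitochondrial counts were kept. Doublets were not called, and leaving out the 5% of cells with most UMIs was an alternative. No library pair of a group agreed within sampling noise (chi-square per degree of freedom 4.18 to 77.3 over genes), and 1889 of 56715 kept barcode sequences occurred in more than 1 library.

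The members and gene lists were chosen with earlier results of these data known. All 8 members are named in every comparison. Beside them are named 6 pathway genes, class I-like genes at 1 CPM or more, 6 receptors and the 3 genes nearest in profile to H2-Q6, H2-T23 and H2-M3. Canx, Tapbp and Mill2 were named after their values were seen. UMIs were summed per tumour and class (at least 10 cells) and tested with edgeR 4.0.16 in R 4.3.3 (filterByExpr, TMM, glmQLFTest, Benjamini-Hochberg adjustment over all genes tested, called below 0.05), all genotypes in a single fit and, between classes, with the tumour as a block. CPM used the UMI total of the class. The SE of an edgeR fold change was taken as the size of the log2 fold change divided by the square root of its quasi-likelihood F. DESeq2 1.42.0, other scalings, filters, gates and leaving out each library were alternatives. Shares of genes called by DESeq2 are of all genes with a fold change, also those without an adjusted p. They may thus be lower than shares of the genes tested. Scripts were tested on simulated counts. Within-tumour ratios used a pseudocount of 0.05 UMIs per 10000. Counting error alone limits low genes, and Cd1d1 and Mr1 could not be tested between genotypes in host cells. Promoters are RefSeq's for GRCm38.p6. Transcripts compared for shared windows are those of GENCODE vM1.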

Additional observations from a re-analysis of the deposited data

Results flagged for a closer look

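H2-Q7 was marked for a closer look in the split of tumour cells by hypoxia genes, because all 3 WT tumours moved in the direction opposite to all 3 Kmt2c KO tumours. The mean log2 ratio of hypoxia-positive to hypoxia-negative cells was 0.26 in WT and -0.24 in Kmt2c KO. The WT ratios rest on 10, 25 and 13 H2-Q7 UMIs in hypoxia-positive cells of libraries 1, 2 and 3. In a second thinning to 2000 UMIs H2-Q7 was higher in hypoxia-positive cells in only 1 of the 9 tumours, with a mean log2 ratio of -0.22, so that the pattern did not recur. The difference between the genotypes was not tested, and over all 9 tumours the ratio was -0.03 ± 0.26 (SD).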

How the results depend on the processing

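No paired analysis was possible because the libraries of the matrix cannot be tied to the replicate numbers of the labels, so that the fit with a replicate block was not run. The count of members called in Kmt2c KO endothelial-gated cells (5 to 6) stayed within 1.5 times its value under each alternative run, as did those between classes and in the interferon and mitosis splits. Of the counts of called members, those between Kmt2d KO and Kmt2c KO tumour cells were 5 with DESeq2 (2.46% of all genes called), 6 without the low-count filter and 1 with at least 2 H2BMc UMIs, against 0 (0.0781%). They ran from 0 to 6 when each library was left out. The count was 6 without Kmt2d KO library 2, where 19.7% of all genes were called, and is a description. Counts given here without a share of all genes do not set the members apart from other genes. In endothelial-gated cells this comparison gave 3 without the filter and 0 to 6 when each library was left out. The 6 were without the same library, where 4.72% of all genes were called, against 0.0% with all tumours. Kmt2d KO against WT in endothelial-gated cells gave 1 with DESeq2 (0.0658% of all genes), with library size only and without the 5% of cells with most UMIs, and 3 without the filter. It gave 0 to 1 when each library was left out. The 1 was H2-Q6, without Kmt2c KO library 2, Kmt2d KO library 1 or Kmt2d KO library 2 (0.241% of all genes without the last). Kmt2c KO against WT in macrophage-gated cells gave 3 with at least 20 cells per tumour and 2 to 6 when each library was left out. The hypoxia split gave 1 at 1000 UMIs, 0 at 4000 UMIs and 0 with at least 2 H2BMc UMIs, and 1 to 2 when each library was left out (1 without Kmt2c KO library 2 or 3, any Kmt2d KO library or WT library 2). The causes of these changes were not tested.

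Among single genes, these values changed sign. In the hypoxia split Cd1d1 was at 0.10, 0.055 and 0.17 at 1000 UMIs, at 4000 UMIs and with at least 2 H2BMc UMIs, and at -0.016 to 0.016 when each library was left out. H2-T22 was at -0.29, -0.066 and -0.19 under the same settings, Mr1 at -0.13 at 1000 UMIs and -0.038 with at least 2 H2BMc UMIs (-0.072 to 0.12 when each library was left out), and H2-Q7 at 0.075 at 4000 UMIs (-0.083 to 0.011 when each library was left out). In the interferon split Cd1d1 was at 0.072 and Mr1 at -0.056 with at least 2 H2BMc UMIs, and Mr1 at -0.17 at 1000 UMIs. Against tumour cells, H2-M3 in macrophage-gated cells was at -0.054 and Mr1 in endothelial-gated cells at -0.25 without the 5% of cells with most UMIs (Mr1 -0.16 to 0.24 when each library was left out). H2-Q4 in endothelial-gated cells was at 0.020 with DESeq2, 0.0057 with library size only and 0.44 with the summed H2-Q rows, and H2-Q7 in macrophage-gated cells, at 0.77 for its own row, at -0.34 with the summed rows, which hold other Q genes as well. DESeq2, which gave fold changes for more genes, put the median of all genes at 1.10 in endothelial-gated and 1.42 in macrophage-gated cells. H2-Q7 in Kmt2d KO against WT macrophage-gated cells was at -0.070 with the stricter gate, and H2-T22 in Kmt2d KO against WT endothelial-gated cells ran from -0.068 to 0.78 when each library was left out. Depth limits Cd1d1, Mr1 and the host classes most.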
